A study of Mus musculus with 6 samples.

Results

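The natriuretic peptide system is a small set of cardiac hormone genes, the proteases that mature the hormones and the receptors that read them. Its members were chosen by name from the peptide, processing and receptor genes of the system. Of 8 genes so named, 6 had a row among the 21269 genes of the table used here: Nppb, the 2 processing proteases Corin and Furin, and the 3 receptors Npr1, Npr2 and Npr3. Nppa and Nppc were not analysed here.

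RNA was sequenced from HL-1 cells, a mouse line of atrial cardiomyocytes grown with norepinephrine in the medium, after transfection with locked nucleic acid (LNA) gapmers. A gapmer is a short oligonucleotide whose binding to an RNA lets RNase H cleave that RNA. One group received a control gapmer (LNA control) and the other a gapmer against the long noncoding RNA Malat1 (LNA Malat1). There were 3 libraries in each group, both gapmers were used at 50 nM and delivered with RNAiMAX a day after seeding (24 hours), and the cells were harvested 48 hours later. Both groups come from 1 cell line and shared the culture medium. Nothing in the labels says that the replicates were separate cultures, so the p-values measure the spread between these libraries, which may be technical.

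Natriuretic peptides are made by cardiomyocytes as longer precursors that proteases cut into the circulating hormone. The hormones bind receptors that are themselves guanylyl cyclases and make cyclic GMP, which activates cGMP-dependent protein kinase and is broken down by phosphodiesterases. A further receptor without a cyclase domain takes the peptides up and removes them. Atrial muscle is a main source of these hormones, and the B-type peptide gene is widely used as a marker of stretch and hypertrophic stress in heart muscle.

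The values are normalized counts, that is, reads per gene scaled by the authors with 1 factor for each library and then rounded. The factors could be read back from the gaps that rounding left, and with them each library held 4511607 to 5594357 reads assigned to genes. Malat1, the target, lay between 4369 and 5197 normalized counts in LNA control and between 2732 and 2833 in LNA Malat1. The LNA control libraries differed from each other more than the LNA Malat1 libraries did: over genes with at least 1600 reads in a pair, the chi-square per gene was between 4.255 and 14.942 for pairs of LNA control and between 1.095 and 2.02 for pairs of LNA Malat1, where sampling noise alone gives about 1. LNA Malat1 replicates 1 and 3, the closest pair, did not differ beyond sampling noise over all 14522 genes compared (0.95 per gene, chi-square p = 1.0), although they did in the 1754 genes with at least 1600 reads (chi-square p = 0.003). Replicates 1 and 2 did not differ beyond it over all genes either (1.01 per gene, chi-square p = 0.15). They did in the 1612 genes with at least 1600 reads (1.665 per gene, chi-square p = 1e-56). As a caution the mean of replicates 1 and 3 was taken as 1 value wherever a mean ± SD of LNA Malat1 is given (n = 2).

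Nppb, which encodes the B-type natriuretic peptide precursor, was listed at 0 in all 3 LNA control libraries, whereas LNA Malat1 replicates 1 to 3 gave 10, 6 and 11 normalized counts. The groups did not overlap, and the LNA Malat1 mean was 8.3 ± 3.2 (SD, n = 2). The recovered reads were 10, 6 and 12 in LNA Malat1, 28 among 15078608 reads on genes, against 0 among 14637437 in LNA control. The limit that a count of 0 allows was taken as 3 reads over the LNA control group. Per read on genes, Nppb in LNA Malat1 was 9.1-fold above that limit. The limit covers counting error in LNA control only. The 28 reads of LNA Malat1 were taken as they stand, so 9.1-fold is not a lower bound. In bulk RNA, fewer cells that express a gene and less RNA per cell cannot be told apart. The gene lies on the plus strand of chromosome 4 (mm10, chr4:147985788-147987205, gene ENSMUSG00000029019), and GENCODE M21 places no other gene over it.

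Stretches of the Nppb promoter are shown because Nppb was the gene of the system that went from no reads to reads (RefSeq, GRCm38.p6, plus strand, chr4:147985793-147985822 and chr4:147985857-147985886). Capitals mark the matches to the letters GGAATG (the element bound by TEAD factors) and to GATAA (the core bound by GATA factors) in the first stretch, and in the second stretch to TATAAA, the box that binds TBP in many core promoters.
Nppb upstream stretch 1: caGGAATGcagctGATAAatcagaGATAAc
Nppb upstream stretch 2: actcagccccagTATAAAaggcagaggcac
The first begins 107 bases before the RefSeq start of Nppb at position 147985900. The Ensembl model used in the table starts 112 bases earlier than RefSeq, so by that model the same letters lie just inside the gene. Searched on both strands of the 250 bases before each RefSeq start, GATAA was found in 22.6% of 32851 mouse promoters, GGAATG in 12.6% and TATAAA in 12.4%, and 152 promoters (0.46%) held all 3, Nppb among them. Among the other 5 members, each with a promoter in the same table, the search matched TATAAA once, at 1 of the 2 RefSeq starts of Furin, and neither of the other motifs. A match is a description of the letters, and no binding was measured.

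**Figure D1:**
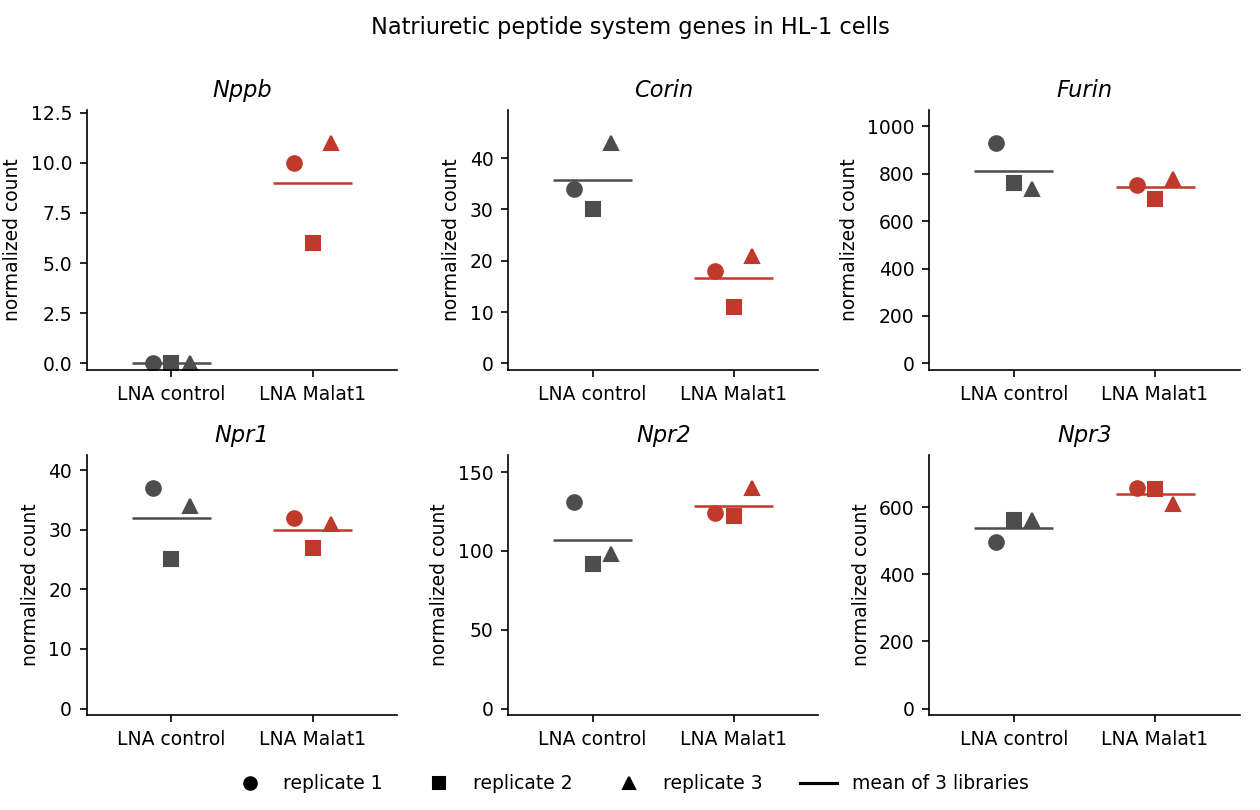
Normalized count of each gene in each library (vertical axis from 0, one panel per gene). Points are libraries, shaped by replicate, and horizontal lines are means of 3 libraries. Nppb sits at 0 in LNA control and between 6 and 11 in LNA Malat1, and Corin falls from between 30 and 43 to between 11 and 21, while the groups overlap for Furin, Npr1 and Npr2.

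With a mean of 4.5 normalized counts over the 6 libraries, Nppb fell under the minimum mean of 5 set for the test. When no minimum was applied it was called higher (a log2 fold change of 3.28 with SE 0.35 at a limma adjusted p of 0.0011 over 21269 genes), a fitted value that depends on the pseudocount of 1. It also passed the minimum when any 1 LNA control library was left out, with the same log2 fold change. With 0 in all 3 LNA control libraries both outcomes were fixed in advance, so these fits add no separate support. Nppb passes then only through the group in which it is high. Genes with few reads were more often seen in LNA Malat1: 508 genes of the table were at 0 in every LNA control library and 123 in every LNA Malat1 library. Of the 508, 4 reached a sum of at least 27 normalized counts over LNA Malat1, the sum of Nppb, namely Nppb, Pglyrp2, 7530414M10Rik and Vmn1r218 (the others looked up after their values were seen), and none of the 123 reached it over LNA control. The nearest tested genes on either side were not called, with 250 to 265 normalized counts for 2510039O18Rik, which ends 38474 bases before Nppb (log2 fold change 0.02, limma adjusted p = 0.80), and 3 to 11 for Gm13054, which begins 13886 bases after it (log2 fold change 0.70, limma adjusted p = 0.24).

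Over the 6 libraries the level of Nppb ran most nearly in parallel with those of Tbc1d23, BC065397 and Gm12905 among 10490 genes averaging 50 or more (Pearson r of 0.997 for each on the log2 scale, over 6 libraries that share their scaling). As many as 359 genes had an r over 0.95. With Nppb at 0 in every LNA control library, r mostly follows the difference between the groups, and shared regulation was not tested. Tbc1d23, for example, had 544, 545 and 548 normalized counts in LNA control, against 649, 633 and 645 after LNA Malat1.

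For the 15650 genes averaging 5 or more, log2(normalized count + 1) was compared between the groups with limma, and p-values were adjusted by Benjamini-Hochberg over all of these genes. Calls required an adjusted p no higher than 0.05 together with a change of 1.5-fold or more, and gave 1252 genes higher and 457 lower in LNA Malat1, or 774 and 695 under quantile normalization. Of the 5 members tested, 1 was called lower in LNA Malat1, Corin, where 2.92% of all genes tested were, and 0 were called higher, where 8.0% were. Without the fold minimum, 1 member was lower, Corin again, against 14.0% of all genes tested, and 1 was higher, Npr3, against 14.3%. The groups did not overlap in 2 of the 5, Corin and Npr3, against 41.3% of all genes tested. With 5 genes, such counts do not set the system apart from the rest of the table.

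Corin, a membrane serine protease of cardiomyocytes that cuts pro-atrial natriuretic peptide, gave 34, 30 and 43 normalized counts in the LNA control libraries (replicates 1 to 3), against 18, 11 and 21 after LNA Malat1. The groups did not overlap, the highest LNA Malat1 value being 21 and the lowest LNA control value 30. The mean went from 35.7 ± 6.7 (SD, n = 3) to 15.3 ± 6.0 (SD, n = 2), 42.8% of LNA control. Averaging replicates 1 and 3 gives more weight to replicate 2, the lowest library, and the mean of the 3 libraries was 16.7. With each library counted once, the log2 fold change was -1.08 (SE 0.26, 95% interval -1.65 to -0.52, limma adjusted p = 0.0079). With replicates 1 and 3 as 1 sample it was -1.21 (limma adjusted p = 0.017). Of the 1835 genes with a mean from 20 to below 50, 19.6% were called higher and 3.87% lower. Corin is a long gene on the minus strand of chromosome 5 (mm10, chr5:72300025-72504473, ENSMUSG00000005220), 204449 bases with 5400 bases of exon. Antisense Gm20647 shares exon sequence with it and was not analysed here. The tested genes next to Corin were not called, Atp10d with a log2 fold change of -0.09 at a limma adjusted p of 0.36 and Nfxl1 with -0.16 at a limma adjusted p of 0.054.

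Furin, the ubiquitous proprotein convertase that can cut the B-type and C-type precursors and many other secreted proteins, had the highest counts of the system, with 930, 760 and 737 in LNA control, against 753, 693 and 779 after LNA Malat1. LNA control replicate 1 stood above the other 5 libraries, and these 5 overlapped. The log2 fold change was -0.12 (SE 0.08, 95% interval -0.29 to 0.06, limma adjusted p = 0.30), and without LNA control replicate 1 it was -0.01 (limma adjusted p = 0.88). A fall of more than 1.5-fold lies outside the interval. Antisense Gm44851, which overlaps exons of Furin on chromosome 7 (mm10, chr7:80388585-80405436, minus strand, ENSMUSG00000030530), was listed at 0 in every LNA control library, against 3, 3 and 4 after LNA Malat1.

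The receptors were measured at 3 distinct levels. Npr1 encodes the guanylyl cyclase receptor of the A-type and B-type peptides and lies on chromosome 3 (mm10, chr3:90450591-90465866, minus strand, ENSMUSG00000027931). It had 37, 25 and 34 normalized counts in LNA control, against 32, 27 and 31 after LNA Malat1, and all LNA Malat1 values fell within the LNA control range. Its log2 fold change was -0.08 (SE 0.20, 95% interval -0.51 to 0.36, limma adjusted p = 0.81), and a change within that interval was not detectable at this depth. Gm16048, an antisense gene over its exons, had 9 to 16 counts in LNA control and 5 to 12 in LNA Malat1.

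Npr2 encodes the guanylyl cyclase receptor of the C-type peptide and lies on the plus strand of chromosome 4 (mm10, chr4:43631935-43651244, ENSMUSG00000028469). It had 131, 92 and 98 normalized counts in LNA control, against 124, 122 and 140 after LNA Malat1. All LNA Malat1 libraries lay above LNA control replicates 2 and 3, and LNA control replicate 1 lay among them. The log2 fold change was 0.28 (SE 0.13, 95% interval 0.00 to 0.55, limma adjusted p = 0.12). Without LNA control replicate 1 it was 0.43 (limma adjusted p = 0.0053), so whether Npr2 passed an adjusted p of 0.05 depended on that library.

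Npr3 encodes the clearance receptor, which binds all 3 peptides and takes them into the cell, and lies on chromosome 15 (mm10, chr15:11839896-11907287, minus strand, ENSMUSG00000022206). It was the receptor with the highest counts, at 496, 561 and 562 in LNA control, against 658, 654 and 609 after LNA Malat1. The groups did not overlap, the lowest LNA Malat1 value being 609 and the highest LNA control value 562. The mean rose from 539.7 ± 37.8 (SD, n = 3) to 643.8 ± 14.5 (SD, n = 2), 119% of LNA control, with a log2 fold change of 0.25 (SE 0.06, 95% interval 0.11 to 0.38, limma adjusted p = 0.010). This lies under the 1.5-fold minimum. The limma adjusted p was 0.061 without LNA Malat1 replicate 1 and 0.053 without LNA Malat1 replicate 2, so the rise passed the threshold in 4 of the 6 fits with 1 library left out.

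Levels of different genes compare only per length of exon, here as normalized counts per kilobase of exon in GENCODE M21. In LNA control the order was Furin (80.3 to 101.3), Npr3 (52.8 to 59.9), Npr2 (19.7 to 28.1), Npr1 (5.23 to 7.74) and Corin (5.56 to 7.96), with Nppb at 0. Npr1 and Corin overlapped there and the other neighbours in the order did not. In LNA Malat1 Nppb took the fourth place with 7.68 to 14.1 per kilobase, above Npr1 (5.65 to 6.69) and Corin (2.04 to 3.89). No 2 neighbours in that order overlapped, although Nppb rests on as few as 6 counts in a library. Per kilobase the clearance receptor stood above both cyclase receptors in all 6 libraries.

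**Figure D2:**
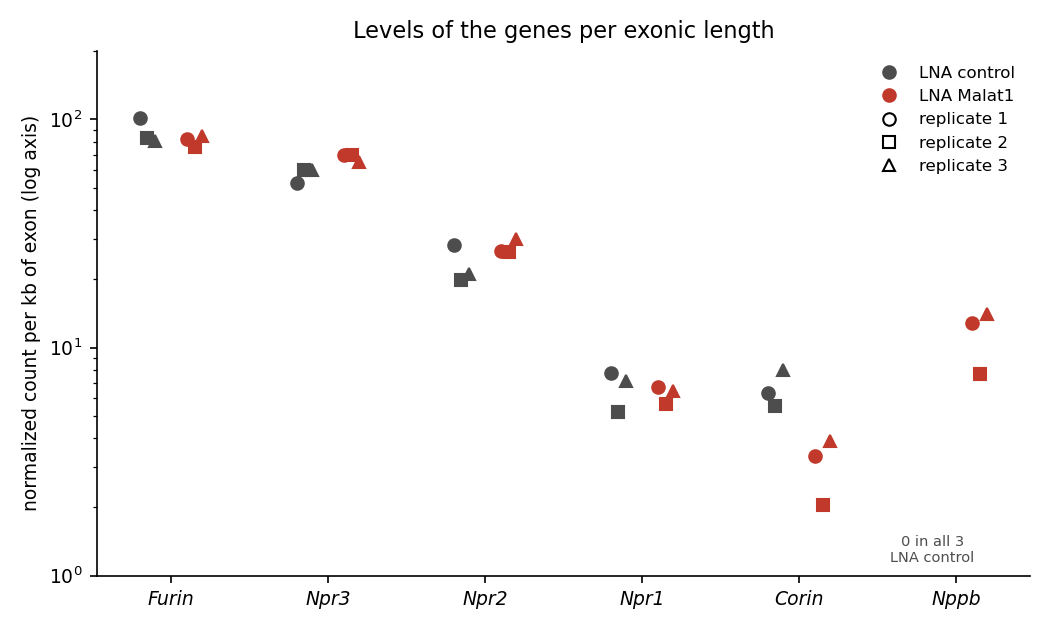
Normalized count per kilobase of exon (log axis) of the 6 genes in each library, LNA control in grey and LNA Malat1 in red, with a marker shape for each replicate. The order of Furin, Npr3 and Npr2 is the same in both groups, and Nppb, at 0 in LNA control, lies above Npr1 and Corin in LNA Malat1.

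Ratios of 2 receptors within a library do not depend on how libraries are scaled. Npr1 counts were 7.46%, 4.46% and 6.05% of the Npr3 counts in LNA control (replicates 1 to 3), against 4.86%, 4.13% and 5.09% after LNA Malat1. The log2 ratio of Npr1 to Npr3 differed by -0.33 (exact permutation test, two-sided, p = 0.30), with overlapping groups. Npr2 counts were 26.4%, 16.4% and 17.4% of the Npr3 counts in LNA control, against 18.8%, 18.7% and 23.0% after LNA Malat1, a difference in log2 ratio of 0.03 (exact permutation test, two-sided, p = 0.90). Leaving out 1 library moved the Npr1 to Npr3 difference to between -0.52 (without LNA control replicate 2) and -0.15 (without LNA control replicate 1). With 3 libraries against 3 such a test cannot give a p under 0.1. No shift between the cyclase receptors and the clearance receptor was resolved beyond the spread between replicates.

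**Figure D3:**
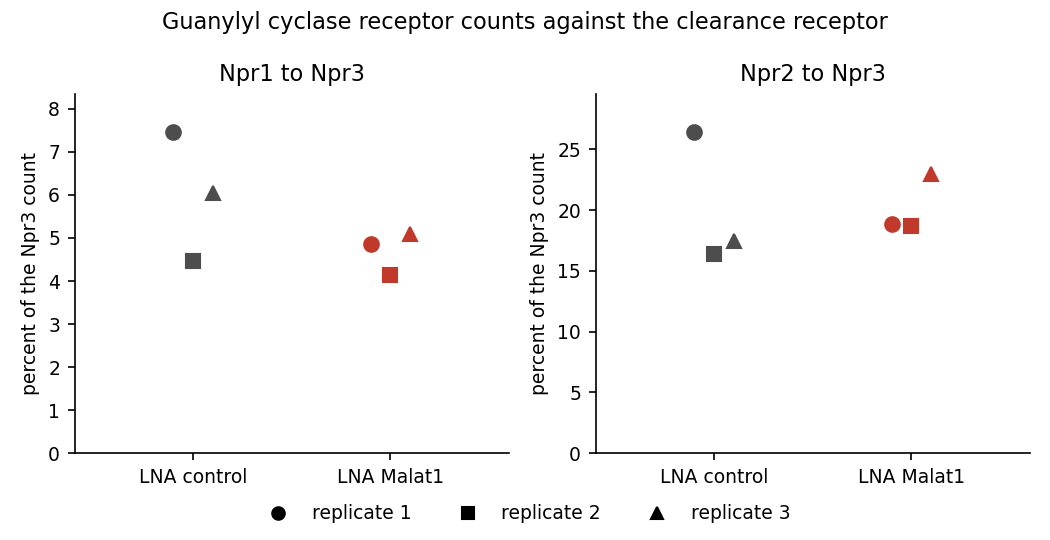
Counts of the guanylyl cyclase receptors Npr1 (left) and Npr2 (right) as a percent of the Npr3 count in the same library (axes from 0), with a marker shape for each replicate. The groups overlap in both panels, and LNA control replicate 1 is the highest library in each.

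Genes around the system were taken from lists of peptide handling, cGMP signalling and transcription of the natriuretic peptide genes. In cGMP signalling 9 of 17 listed genes were tested, a list chosen with earlier results of these data known. Without the fold minimum, 8 of the 9 were lower in LNA Malat1 (6 under quantile normalization), against 14.0% of all genes tested. In the same fit 0 were higher, against 14.3%. The median log2 fold change was -0.51 against 0.02 over all genes tested. Genes of this level were lower more often than others, 14.3% of those with a mean from 50 to below 200, 22.7% of those from 200 to below 500 and 22.7% of those from 500. Pde9a, a phosphodiesterase that breaks down cGMP, was the 1 gene that also passed the 1.5-fold minimum. Of all genes tested 2.92% were called lower, and 4.57% of those with a mean from 50 to below 200, where Pde9a lies. Pde9a went from 217, 253 and 239 normalized counts to 100, 105 and 115 (a log2 fold change of -1.14 with SE 0.09 at a limma adjusted p of 2.0e-06). The other 7 fell by less. Prkg1, the cGMP-dependent protein kinase, had 150, 173 and 188 counts in LNA control, against 117, 109 and 116 after LNA Malat1 (a log2 fold change of -0.57 at a limma adjusted p of 0.00083). The cGMP exporters Abcc5 (log2 fold change -0.54) and Abcc4 (-0.51), Mrvi1, a substrate of the kinase (-0.53), the subunits Gucy1b1 (-0.33) and Gucy1a1 (-0.14) of the soluble cyclase, and Vasp, another substrate (-0.23), had limma adjusted p between 3.5e-05 and 0.046. Pde5a, a cGMP phosphodiesterase with 11 to 22 counts, had a log2 fold change of 0.10 (95% interval -0.52 to 0.73, limma adjusted p = 0.82).

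**Figure D4:**
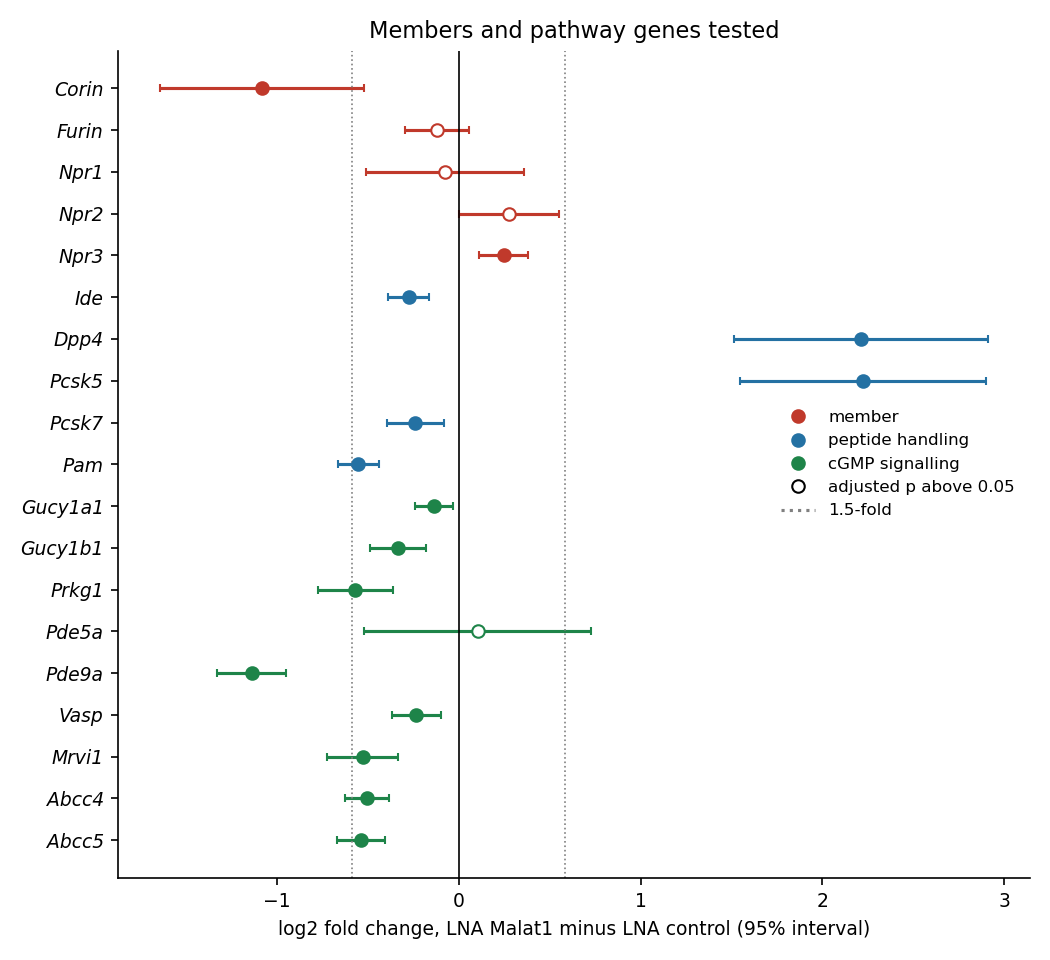
Log2 fold change in LNA Malat1 against LNA control (horizontal axis, with 95% intervals from limma) of the 5 members tested and of the tested genes for peptide handling and cGMP signalling. Filled points passed an adjusted p of 0.05, dotted lines mark 1.5-fold, and 8 of the 9 cGMP signalling genes lie to the left of 0 with filled points.

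Of 8 genes that handle peptides, 5 were tested, and 2 were called higher, against 8.0% of all genes tested. Without the fold minimum, 3 were lower, against 14.0% of all genes tested. The number lower was 2 under quantile normalization and 2 to 3 with 1 library left out. Dpp4, a peptidase that trims B-type natriuretic peptide, went from 15, 5 and 11 normalized counts to 46, 41 and 57 (a log2 fold change of 2.21 with SE 0.32 at a limma adjusted p of 0.0003). Pcsk5, a proprotein convertase of the Furin family, went from 4, 4 and 7 to 24, 23 and 33 (a log2 fold change of 2.22 with SE 0.31 at a limma adjusted p of 0.00022). Calls of this kind were common at their levels: 19.6% of the 1835 genes with a mean from 20 to below 50, where Dpp4 lies, were called higher, and 18.5% of the 1562 genes from 10 to below 20, where Pcsk5 lies. Pam, an abundant enzyme of atrial granule membranes, fell from between 731 and 779 to between 495 and 520 (log2 fold change -0.55, limma adjusted p = 1.0e-05), and Ide, the insulin-degrading enzyme, which can also cleave natriuretic peptides, had a log2 fold change of -0.28 at a limma adjusted p of 0.0017. Pcsk7 was the remaining lower gene (log2 fold change -0.24, limma adjusted p = 0.0265). At the levels of these genes, 22.7% of genes with a mean from 200 to below 500 and 22.7% of those from 500 were lower. Pcsk6, the convertase that activates Corin, lay between 0 and 4 counts in both groups and was not tested.

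Of 20 transcription factor genes linked to natriuretic peptide transcription, 18 were tested and their median log2 fold change was -0.02. Without the fold minimum, 4 were higher and 4 lower, against 14.3% and 14.0% of all genes tested, and 2 were called higher, Tbx3 and Egr1, against 8.0%. At the level of Tbx3, a mean from 20 to below 50, 19.6% of genes were called higher, and at that of Egr1, from 200 to below 500, 1.41% were. Tbx3, a repressor of chamber muscle genes, had 17, 20 and 12 normalized counts in LNA control, against 46, 42 and 53 after LNA Malat1 (a log2 fold change of 1.49 at a limma adjusted p of 0.00035). Egr1, an immediate early gene, had 174, 131 and 124 counts and 266, 262 and 281 (log2 fold change 0.93, limma adjusted p = 5.7e-05). The genes of the GATA factors expressed in heart muscle were lower by less than 1.5-fold, Gata4 with a log2 fold change of -0.21 at a limma adjusted p of 0.0079 and Gata6 with -0.35 at a limma adjusted p of 0.0028. The other lower genes were Hand2 (log2 fold change -0.30) and Tbx5 (-0.22), and the other higher ones Nfatc1 (0.45) and Jun (0.27). At the levels of the 4 lower genes, 22.7% of genes from 200 to below 500 and 22.7% of those from 500 were lower. Nkx2-5, the cardiac homeobox factor, had between 187 and 211 counts in all 6 libraries (log2 fold change 0.01, 95% interval -0.15 to 0.16, limma adjusted p = 0.96).

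The label of an atrial cardiomyocyte line was set against marker genes. Of 12 atrial markers 9 had a row, with Nr2f2 between 890 and 1099 and Tbx5 between 386 and 544 normalized counts, but Myl7 at 18 to 32, Myl4 at 30 to 49, and Gja5 at 0 to 4. Of the 8 atrial markers tested, none was called, 5 had a negative log2 fold change, and 2 were lower without the fold minimum, Tbx5 (-0.22) and Dkk3 (-0.22). At their level, a mean from 200 to below 500, 22.7% of genes were lower, and of all genes tested 14.0% were. The general cardiomyocyte genes Ttn (8524 to 16320), Ryr2 (2237 to 2706) and Tnnt2 (647 to 746) were high, while Myh6, the adult atrial and ventricular myosin of the mouse, was at 0 to 7. Of 6 ventricular markers 4 had a row, Myl3 and Myh7 at 0 to 4 in all libraries, and the other two were called higher in LNA Malat1, Myl2 (60 to 70 and 92 to 115) and Hey2 (16 to 21 and 47 to 53). At the level of Hey2, 19.6% of genes were called higher, and at that of Myl2, from 50 to below 200, 7.02% were. The 8 general cardiomyocyte genes tested had a median log2 fold change of 0.00. Ttn (0.66) and Actn2 (0.71) were called higher, against 8.0% of all genes tested. At the level of Ttn, a mean of 500 or more, 0.34% of genes were called higher. At that of Actn2, from 50 to below 200, 7.02% were. Without the fold minimum, Tnnt2 (0.15) was also higher and Pln (-0.25) lower, against 14.3% and 14.0% of all genes tested. The other 4 did not pass the test. Among markers of other cells, the 2 of 5 macrophage genes with a row, Cd68 and Csf1r, were both called higher, at a level where 19.6% of all genes were, with sums of 32 to 36 in LNA control and 54 to 81 in LNA Malat1. The 3 of 7 endothelial genes with a row summed to 22 to 31 and 36 to 37, and none passed the test. The 5 of 8 fibroblast genes with a row summed to 5304 to 5911 and 4683 to 4817, with Col1a2 at 0 to 1, and of the 4 tested Col3a1 was lower without the fold minimum (log2 fold change -0.33). Of all genes tested 14.0% were lower, and 22.7% of those at its level, a mean of 500 or more. The 5 smooth muscle genes summed to 1778 to 1977 and 1919 to 2044, and Cnn1 (0.40) and Smtn (0.33) were higher without the fold minimum. Of all genes tested 14.3% were higher. At the level of Cnn1, from 50 to below 200, 15.9% were, and at that of Smtn, from 200 to below 500, 11.2%. The part of these genes in the changes of Nppb and Corin was not tested.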

How the data were processed

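Reads were single-end, from a stranded total RNA kit. By the submitters' processing notes and the methods, the authors trimmed reads with Trimmomatic 0.39, aligned them to mm10 with STAR 2.7.7a, and counted exonic reads per gene with featureCounts 1.6.5, leaving out reads on several genes or regions. Whether strand was used in counting is not given in the sources used here, so reads of antisense pairs cannot be told apart. The values deposited by the authors are a score, namely counts divided by 1 DESeq2 1.30.0 factor per library and rounded, so count tests were not used. Genes with a mean of at least 5 were tested with limma 3.58.1 (R 4.3.3; lmFit, eBayes with trend, two-sided, pseudocount 1). Printed fold changes are differences of log2(normalized count + 1), a scale that understates the change of low genes. On simulated libraries of 15633 genes, 97% of 200 genes changed 2-fold were recovered and 1 unchanged gene was called. No gene at the level of Nppb or Pcsk5 was among the 200, and the same spread was simulated for both groups. These rates therefore do not cover such low genes or the unequal spread of the groups here. Library factors were fitted to the gaps that rounding leaves. Libraries with the same replicate number were only weakly alike and were not treated as pairs. Gene positions are the table's, and 21036 of 21269 match GENCODE M21, which gave exon lengths. Ratios were tested by exact permutation (scipy 1.17.1).

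The members and lists were chosen with earlier results of these data known. The rule for named genes took all members, up to 4 called genes of each pathway list by size of change, markers at the highest mean or at 0, the nearest tested gene on either side of a member, and the 3 genes most like Nppb. Other genes named were chosen after their values were seen. Alternatives were another scaling, pseudocount, filter, fold minimum or variance model, a replicate block, LNA Malat1 replicates 1 and 3 as 1 sample, and leaving out each library. The planned ratio to Nppb was not run, because its partner was not analysed here.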

Additional observations from a re-analysis of the deposited data

How the results depend on the processing

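Corin was lower and past the threshold in each alternative that tested it, with log2 fold changes between -1.26 and -0.83 when 1 library was left out, and 1 member was called lower in each of those fits. A minimum mean of 50 removed it, leaving 0 members called lower. The number called higher was 1 with no filter (Nppb), 1 with no fold minimum (Npr3), and 0 to 1 with 1 library left out (Nppb, without an LNA control library). With Nppb at 0 in all 3 LNA control libraries, its calls here and below were fixed in advance and add no separate support. Without the fold minimum, 0 to 3 members were higher when 1 library was left out (3 without LNA control replicate 1, namely Nppb, Npr2 and Npr3) and 0 without the variance trend (Npr3, limma adjusted p = 0.075), an alternative added for this count after seeing the data. The log2 fold change of Npr1 lay between -0.24 and 0.036 with 1 library left out, the latter without LNA control replicate 1. The Npr2 to Npr3 difference lay between -0.10 and 0.25 with 1 library left out, with both signs, and the Npr1 to Npr3 difference between -0.52 and -0.15. In cGMP signalling, 2 genes were called lower under median-of-ratios scaling and 1 to 3 with 1 library left out, and 6 to 8 of the list were lower without the fold minimum. In the transcription list 2 to 4 genes were higher without the fold minimum, and in the secretory granule list 0 to 1 was called lower. The causes were not tested. Libraries with the same replicate number had correlated deviations of 0.086, 0.182 and 0.083 over 10490 genes, too weak to treat as pairs, although each library correlated best with its own number. The replicate block left the member calls as they were, with Corin at -1.08 (limma adjusted p = 0.0039). Depth limits Nppb, Npr1 and Corin most. Over all genes, the 1252 genes called higher and 457 lower became 774 and 695 under quantile normalization, 317 and 349 with a mean of at least 50, 742 and 99 with a 2-fold minimum, 2231 and 2195 without a fold minimum, 796 and 427 when the closest LNA Malat1 pair was averaged, and 769 to 1621 higher with 1 library left out.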

Other observations

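Genes of the regulated secretory pathway, in which atrial cardiomyocytes store natriuretic peptide precursors, were sparsely measured in these cells. Of 12 listed genes 5 were tested, none was called, and 2 were lower in LNA Malat1 without the fold minimum, where 14.0% of all genes tested were, 14.3% of genes at the level of Rab3a and 22.7% at that of Pam. Rab3a, a small GTPase of secretory vesicles, had 193, 156 and 147 normalized counts in LNA control, against 107, 120 and 116 after LNA Malat1 (a log2 fold change of -0.52 with SE 0.11 at a limma adjusted p of 0.0031), and Pam was the other. Cpe, carboxypeptidase E, had 606 to 741 counts (log2 fold change -0.12, limma adjusted p = 0.17). The granule protein genes Chgb, Scg2 and Scg5 lay between 0 and 7 counts in all libraries. Rgp1, the tested gene before Npr2 on chromosome 4, was higher in LNA Malat1 without the fold minimum (log2 fold change 0.28, limma adjusted p = 0.015), while Npr2 itself did not pass. Of all genes tested 14.3% were higher, and 11.2% of those at the level of Rgp1, a mean from 200 to below 500. None of the other tested genes nearest to a member passed.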
